A study of Solanum lycopersicum with 6 samples.

Results

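Late-induced genes were those whose transcripts had hardly moved after 1 h of heat stress (HS) but had risen strongly after 6 h. They were chosen by measured values. Counts were scaled to CPM (counts relative to the size of the library, as fitted by edgeR with TMM factors), and a level L was taken as the mean over both replicates of log2(CPM + 0.5). A gene was kept when L at 1 h differed from L at 0 h by less than 0.5 and L at 6 h lay at least 2 above L at 0 h. This held for 118 of the 19123 genes that had at least 50 counts in at least 2 libraries, which is 0.617% of them, out of 35603 genes in the table.

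Heat unfolds proteins in plant cells, and heat stress transcription factors respond within minutes by switching on genes for chaperones, the proteins that hold or refold other proteins. This first wave is known to fade in many plants while heat goes on. Later changes are known to involve protein turnover, hormones, membranes and metabolism, and in leaves they run alongside the daily rhythm of gene expression.

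The libraries came from the fourth leaves of WT tomato (*Solanum lycopersicum* cv. M82, a processing cultivar), with plants grown at 24 °C under 16 h of light until they were 4 weeks old. Plants were then held at 45 °C for 0, 1 or 6 h, and each time had 2 libraries whose labels call them biological replicates, which the methods of the study describe as pools of seedlings. All groups shared genotype, age and growth conditions. The 0 h libraries were the control for both later times, and unheated leaves of the later times were not analysed here, so the length of HS and the time of day cannot be told apart.

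The libraries held between 25147160 and 30738632 counts, and their TMM factors lay between 0.866 and 1.22, lowest at 1 h and highest at 6 h. Since whole leaves were used, a change in the amount of RNA per cell and a change in the number of cells of a type cannot be told apart. Gene IDs are given as in the deposited table, which pairs them with no names. The RefSeq gene table at hand held 0 of the 118 IDs. Roles, pathway lists, leaf markers and promoter sequences are therefore not given, and the genes are described by their levels, lengths and positions.

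Most late-induced genes lay close to the lower limit of the 6 h rise. The rise in L from 0 h to 6 h ran from 2.01 to 4.18, with quartiles at 2.13, 2.29 and 2.66. It was under 2.5 in 82 genes, from 2.5 to 3 in 25 and 3 or more in 11. Over all tested genes its median was 0.03. The change in L at 1 h ran from -0.45 to 0.50 with a median of 0.24, against 0.00 over all tested genes, and it was positive in 92 genes (78.0%, against 50.1% of all tested genes) and negative in 26. With total count scaling in place of TMM these 1 h medians were 0.10 and -0.14, lower by a like amount. The selected genes thus filled the allowed 1 h range unevenly, mostly on its upper side. Both changes are taken against the same 0 h libraries, so a low 0 h value raises both. How much of the uneven spread the selection itself brought was not tested.

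**Figure D1:**
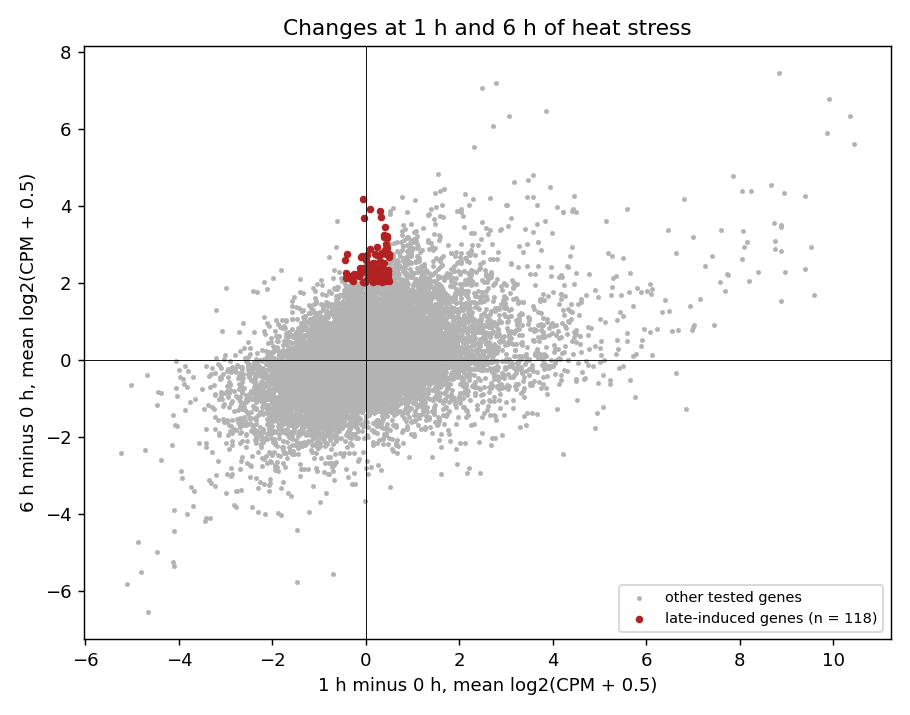
Change in mean log2(CPM + 0.5) from 0 h to 1 h of HS (x axis) and from 0 h to 6 h (y axis) for the 19123 tested genes, 1 point per gene. The 118 late-induced genes (red) sit by selection above 2 on the y axis and between -0.5 and 0.5 on the x axis, and most of them lie to the right of 0.

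The limits cut through a continuous spread of values. Just inside the 6 h limit lay Solyc02g090240.4 with a rise of 2.01, and just outside it lay Solyc02g070710.3 with 2.00, which was under 2 before rounding. At the upper 1 h limit, Solyc09g072630.3 lay inside with 0.50, just under the limit before rounding, and Solyc04g063340.3 lay just outside, also at 0.50 when rounded. At the lower 1 h limit, Solyc02g032860.3 lay inside with -0.45, and Solyc08g066940.4 lay outside with -0.50. Genes on either side of a limit therefore had nearly the same values.

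Genes with a 6 h rise of at least 2 numbered 537, and the late-induced genes made up 22% of them. In 235 of the 537 (43.8%) L had already risen by 0.5 to 2 at 1 h, in 171 (31.8%) by at least 2, and in 13 (2.42%) it had dropped by at least 0.5. Late-induced genes had a median of 1.42 CPM before heat, 1.77 CPM after 1 h and 9.44 CPM after 6 h. Where L had risen by 0.5 to 2 at 1 h, the medians were close to these at 0 h and 6 h, at 1.29, 3.22 and 11.3 CPM. Where it had risen by at least 2 at 1 h, they were 4.63, 78.9 and 47.8 CPM, and 110 of these 171 genes were no higher at 6 h than at 1 h. These classes come from the same values as the selection and were not tested against each other.

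Taken over all 118 genes, the summed level was several times higher at 6 h than at 0 h and 1 h, a course that the selection asked of each gene. The summed CPM before heat was 604 in replicate 1 and 763 in replicate 2, after 1 h it was 762 and 768, and after 6 h it was 4609 and 4324. As a share of all counts in a library, these genes took 0.0576% and 0.0756% before heat, 0.0673% and 0.0664% after 1 h, and 0.522% and 0.524% after 6 h. Both 6 h libraries thus stood apart from the other 4, which the selection favours. The 1 h libraries were level with the higher 0 h library by summed CPM and lay between the 0 h libraries by share of counts. A few genes carried most of the 6 h sum: the top gene held 16.6% of it, the top 5 held 45.8% and the top 10 held 62.6%.

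**Figure D2:**
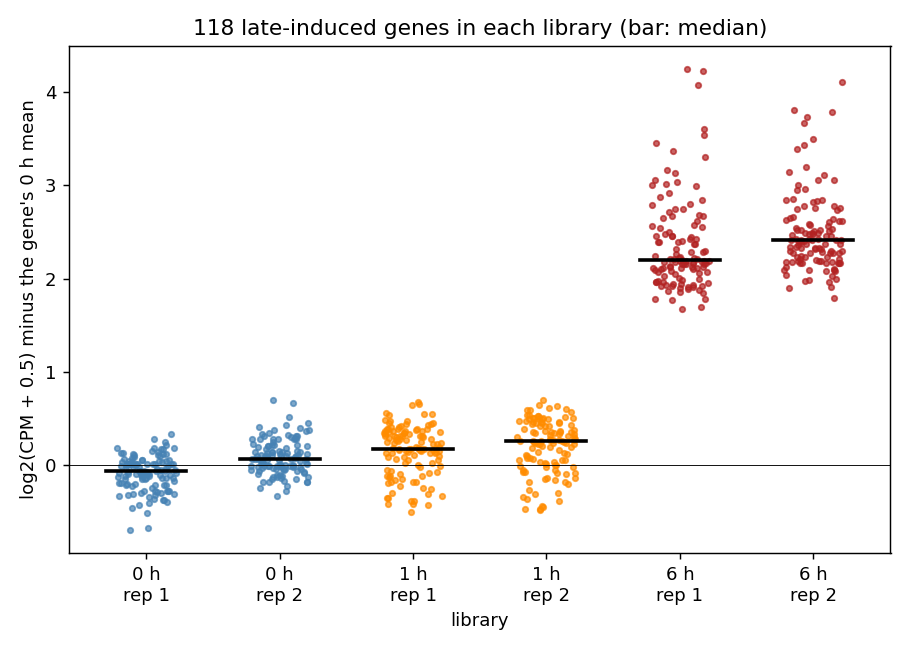
Level of each of the 118 late-induced genes in each library, as log2(CPM + 0.5) minus the gene's own 0 h mean; points are genes, spread sideways for visibility, and bars are medians. The 6 h libraries lie apart from the 0 h and 1 h libraries in every gene, which the selection favours, and replicate 2 at 6 h has the higher median of the pair.

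The rise at 6 h passed the test in every selected gene, which the selection on the same contrast favours. With edgeR's quasi-likelihood test and Benjamini-Hochberg adjustment over all tested genes, 118 of 118 were called higher at 6 h than at 0 h, with a largest adjusted p of 0.00213, while 30.9% of all tested genes were called higher in that comparison. Against 1 h, 118 of 118 were called higher, with a largest adjusted p of 0.00144, while 34.7% of all tested genes were. In all 118 genes both 6 h libraries lay above the other 4, and the lower of them held at least 2 times the CPM of the highest other library. That ratio was smallest in Solyc09g072630.3, at 2.3, and its median was 4.54. The selection favours this separation as well, and it was not counted over all tested genes. In the 115 genes with more than 3 counts in a 0 h library, the fold of mean CPM from 0 h to 6 h had a median of 6.72 and reached 30.1. Their fitted log2 fold change had a median of 2.74, above the median of L because the added 0.5 CPM shrinks the change of weakly expressed genes.

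Solyc07g014730.3 (chromosome 7, 5308523 to 5312076, plus strand) had the largest rise in L. It stood at 1.17 and 2.89 CPM at 0 h, 1.51 and 2.05 CPM at 1 h, and 44.7 and 40.7 CPM at 6 h. Its 1 h values lay between the 0 h values, and both 6 h values were far above the rest. The edgeR fit put the log2 fold change from 0 h to 6 h at 4.39 with an SE of 0.315 (adjusted p = 1.92e-05). Since the 0 h replicates differed, this value moved from 3.88 without replicate 1 to 5.14 without replicate 2 of that time.

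Solyc02g076690.3 (chromosome 2, 41445185 to 41447953, minus strand) came next and was expressed far more strongly. Its levels were 24.6 and 24.3 CPM at 0 h, 27.3 and 24.7 CPM at 1 h, and 421 and 332 CPM at 6 h. The 0 h and 1 h libraries were alike to within a few CPM, and the 6 h libraries were apart from them. The mean at 6 h was 15.4 times that at 0 h, which edgeR fitted as 3.95 ± 0.154 on the log2 scale (SE; adjusted p = 2.18e-06).

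Solyc06g071820.3 (chromosome 6, 46843699 to 46847226, minus strand) had the flattest start among the strongly raised genes. It was at 11.4 and 11.5 CPM at 0 h, 10.9 and 11.3 CPM at 1 h, and 139 and 165 CPM at 6 h. Both 1 h values lay just below both 0 h values, with a fitted log2 change of -0.04 and a 95% interval from -0.34 to 0.25. By 6 h the mean had grown 13.3-fold (edgeR log2 fold change 3.73 ± 0.129 SE, adjusted p = 1.67e-06).

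Solyc10g045490.2 (chromosome 10, 34169423 to 34170841, plus strand) combined a low level with close replicates. It gave 2.21 and 2.81 CPM at 0 h, 3.21 and 3.31 CPM at 1 h, and 36.1 and 41.6 CPM at 6 h. Here both 1 h values were above both 0 h values, although the 1 h difference did not pass the test (edgeR log2 fold change 0.37, adjusted p = 0.116). Solyc10g078920.3 showed the same order of times at a higher level, with 11.4 and 9.55 CPM at 0 h, 15.4 and 12.4 CPM at 1 h, and 113 and 94.5 CPM at 6 h.

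Among weakly expressed genes with large rises, Solyc05g023900.1 went from 0.376 and 0.522 CPM at 0 h through 0.995 and 0.629 CPM at 1 h to 7.25 and 9.45 CPM at 6 h. Solyc06g009500.1 went from 0.334 and 0.401 CPM through 0.663 and 0.670 CPM to 6.5 and 6.48 CPM. Solyc01g097670.4 went from 0.751 and 1.49 CPM through 1.58 and 1.76 CPM to 13.3 and 13.9 CPM. In each of these genes both 1 h values were already above both 0 h values, and the 6 h values were above all others.

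**Figure D3:**
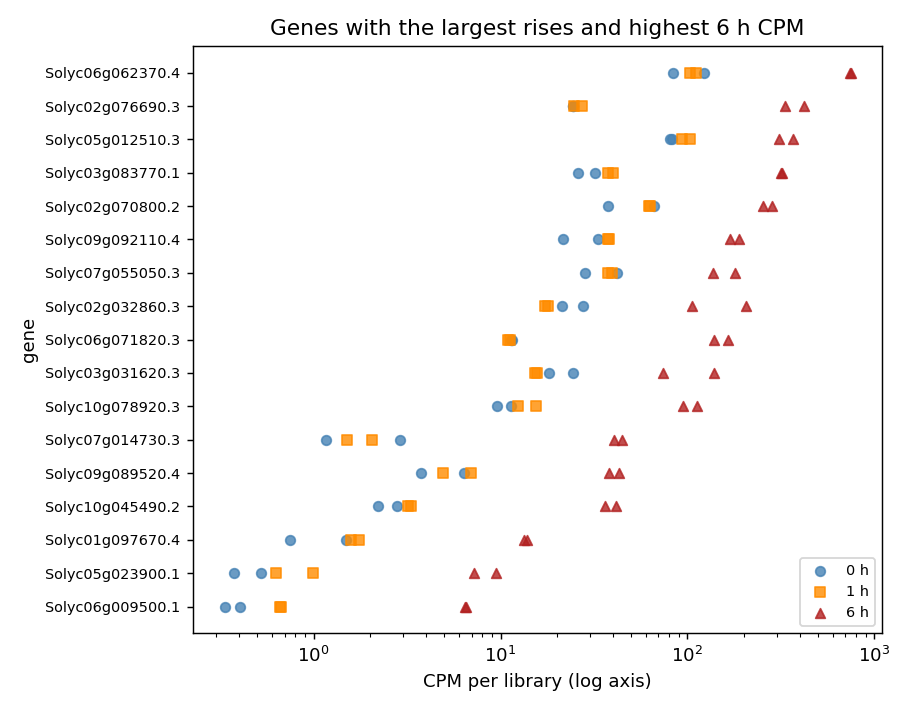
CPM (log axis) in each library for the genes with the largest 6 h rises and those with the highest 6 h CPM, ordered by 6 h level from top to bottom; circles are 0 h, squares 1 h and triangles 6 h, with 1 symbol per library. The 6 h symbols lie to the right of the others for every gene, from 6.48 and 6.5 CPM in Solyc06g009500.1 to 738 and 747 CPM in Solyc06g062370.4.

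The most abundant late-induced transcript at 6 h was Solyc06g062370.4 (chromosome 6, 41941685 to 41942922, minus strand). It had 83.6 and 123 CPM at 0 h, 111 and 104 CPM at 1 h, and 747 and 738 CPM at 6 h. The 1 h values fell between the 0 h values, and the 6 h mean was 7.20 times the 0 h mean (edgeR log2 fold change 2.85 ± 0.191 SE, adjusted p = 1.46e-05). It was also the only selected gene at 100 CPM or more before heat. Per kilobase of gene span, introns included, it was the highest as well, at 600 CPM per kb at 6 h.

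Solyc03g083770.1 (chromosome 3, 49743364 to 49743966, plus strand), a short gene of 603 bp, was close behind per length, at 529 CPM per kb at 6 h. Its libraries gave 26.1 and 32.0 CPM at 0 h, 37.5 and 40.1 CPM at 1 h, and 321 and 318 CPM at 6 h. The times did not overlap, and the 1 h rise was small against that at 6 h. Solyc05g012510.3 (chromosome 5, 5873323 to 5879527, minus strand), a longer gene of 6205 bp, held 81.1 and 82.8 CPM at 0 h, 93.8 and 103 CPM at 1 h, and 367 and 308 CPM at 6 h. Per length it reached 54.4 CPM per kb at 6 h. Over all 118 genes the level at 6 h ran from 0.645 to 600 CPM per kb with a median of 4.26, against a median of 5.33 over all tested genes, whereas at 0 h the medians were 0.673 and 5.07 CPM per kb.

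Some of the abundant genes differed between the 6 h replicates. Solyc02g032860.3 held 27.6 and 21.4 CPM at 0 h, 17.9 and 17.3 CPM at 1 h, and 207 and 105 CPM at 6 h. Solyc03g031620.3 held 18.2 and 24.4 CPM at 0 h, 15.6 and 15.3 CPM at 1 h, and 138 and 74.0 CPM at 6 h. In both genes the 1 h libraries lay below both 0 h libraries and 6 h replicate 1 was well above replicate 2, yet all 6 h values were above all others. Without 6 h replicate 1 the fitted log2 fold change of Solyc03g031620.3 went from 2.32 to 1.80, and that of Solyc02g032860.3 from 2.67 to 2.11.

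At the other end, 3 late-induced genes held at most 3 counts in both 0 h libraries, as did 76 of all tested genes. Solyc12g032930.3 (chromosome 12, 38215625 to 38219351, minus strand) had 0 counts in both 0 h libraries, 1 and 5 counts at 1 h, and 286 and 177 counts at 6 h, or 8.90 and 5.15 CPM. Against a floor of 3 counts per library (0.125 CPM), its mean at 6 h was at least 56.2-fold higher, a bound that covers counting error only. Solyc06g075567.1 had 1 and 3 counts before heat, 4 and 9 counts after 1 h, and 103 and 237 counts after 6 h. Solyc02g090800.1 had 0 and 1 counts before heat, 2 and 3 counts after 1 h, and 149 and 63 counts after 6 h. In all 3 genes the 6 h libraries were clear of the rest, but the fitted folds rest on a prior count and are not given.

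The question whether these genes were silent to 1 h of HS was examined gene by gene with the fit. Of the 118 genes, 7 (5.93%) were called at 1 h against 0 h, all of them higher at 1 h, while 63.5% of all tested genes were called in either direction. The selection limited this change, so the low share was built in. An unadjusted p below 0.05 was found in 17 of the 118 genes, a count that was not made over all tested genes. The 7 called genes were Solyc03g083770.1, Solyc12g057060.2, Solyc03g032240.4, Solyc12g006575.1, Solyc08g065260.4, Solyc04g008730.3 and Solyc12g099960.1, with edgeR adjusted p-values between 0.0200 and 0.0463. Without 0 h replicate 2, 18 of the 118 genes were called at 1 h, without 1 h replicate 1 there were 3 and without 1 h replicate 2 there was 1, so the count rested on single libraries. With upper-quartile scaling 3 and with total count scaling 4 of the 118 genes were called, and none of the 7 was among them, so each of these calls depended on the scaling.

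With TMM scaling, the called 1 h changes differed in size, as examples at a higher and a low level show. Solyc12g099960.1 went from 15.5 and 17.8 CPM at 0 h to 21.8 and 20.9 CPM at 1 h, before it reached 71.0 and 76.2 CPM at 6 h. Its fitted 1 h log2 fold change was 0.36 ± 0.115 (SE; edgeR adjusted p = 0.0234). Solyc03g032240.4 went from 0.167 and 0.161 CPM to 0.405 and 0.461 CPM at 1 h and 3.36 and 4.04 CPM at 6 h. This was 4 counts in each 0 h library against 11 in each 1 h library, which edgeR fitted as 1.38 ± 0.483 on the log2 scale (SE; adjusted p = 0.0338), although its L had changed by only 0.49.

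That gap between L and the fitted change was common at low levels. The fitted 1 h change was at least 0.5 in size in 35 of the 118 genes, and 20 of these were below 1 CPM at 0 h. It was at least 1 in size in 7 genes. The 95% interval of the 1 h log2 fold change stayed within 1 in either direction in 50 genes and reached past 1 in the other 68, with a median half-width of 0.68. For most of these genes, then, a doubling or halving at 1 h lay within the interval. By the libraries themselves, the 0 h and 1 h values overlapped in 50 genes, both 1 h libraries were above both 0 h libraries in 56, and both were below in 12. These counts were not made over all tested genes, and the selection limited the 1 h change, so they only describe the 118 genes. The selected 6 h rise used the same 0 h libraries, and its part in these numbers was not tested.

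Before heat, most late-induced genes were weakly expressed. At 0 h, 41 were below 1 CPM (34.7%, against 3.85% of all tested genes), 61 were between 1 and 10 CPM, 15 between 10 and 100 CPM and 1 at 100 CPM or more. At 10 CPM or above were 13.6% of them, against 67.0% of all tested genes, and their median was 1.42 CPM against 19.6 CPM. At 6 h, 64 genes lay between 1 and 10 CPM, 43 between 10 and 100 CPM and 11 at 100 CPM or more. Their median at 6 h, 9.44 CPM, was still below the 21.0 CPM of all tested genes.

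The level before heat, the filter on counts and the size of the change were tied together. Through the 6 h libraries alone, 60 of the 118 genes passed the filter, 7 had exactly 1 library of 0 h or 1 h with at least 50 counts, and 51 had at least 2. A weakly expressed gene could pass only by being higher at a later time. Among all tested genes below 1 CPM at 0 h, 178 of 737 (24.2%) had a 6 h rise in L of at least 2, compared with 253 of 5581 (4.53%) at 1 to 10 CPM, 99 of 10632 (0.931%) at 10 to 100 CPM and 7 of 2173 (0.322%) at 100 CPM or more. Late-induced genes made up 5.56%, 1.09%, 0.141% and 0.046% of the tested genes in these classes. Of the genes that rose by at least 2 they made up 23.0%, 24.1%, 15.2% and 14.3%, the last being 1 of 7 genes. The share in the lowest class is thus conditioned on a later rise by the filter itself, and the part of the filter in the differences between classes was not tested.

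**Figure D4:**
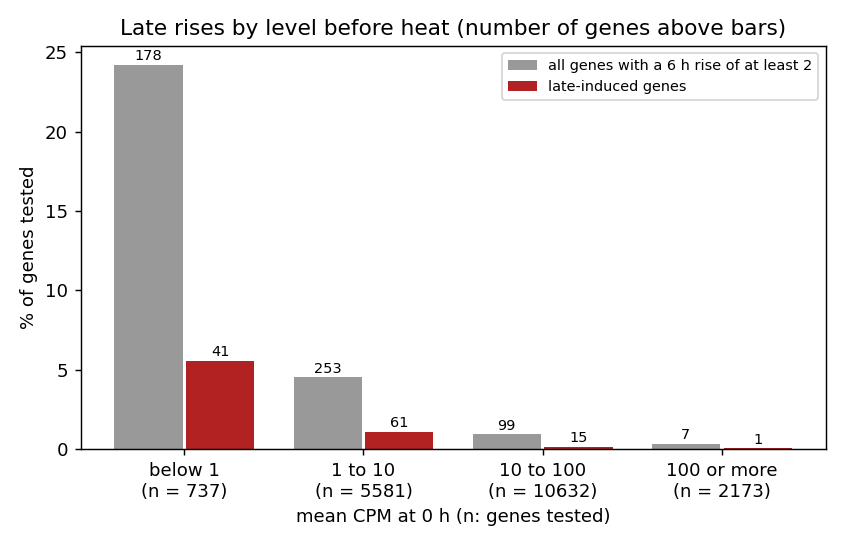
Share of tested genes (y axis, %) with a 6 h rise in mean log2(CPM + 0.5) of at least 2 (grey) and of late-induced genes (red), by mean CPM at 0 h (x axis), with the number of genes above each bar. Both shares fall from the lowest class (24.2% and 5.56%) to the highest (0.322% and 0.046%).

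Replicates of late-induced genes differed somewhat more than those of tested genes as a whole. Between replicates, the absolute difference of log2(CPM + 0.5) had a median of 0.24 before heat, 0.16 after 1 h and 0.24 after 6 h, against 0.18, 0.11 and 0.16 over all tested genes. The late-induced genes were also lower in level, with a median of 1.42 against 19.6 CPM at 0 h and 9.44 against 21.0 CPM at 6 h. The replicate differences were not compared at matched levels, so the part of the level was not tested. At 0 h the replicates of 3 genes differed by at least 1, and at 6 h this was so in 1 gene, Solyc02g090800.1, by 1.14. Every one of these differences was smaller than the smallest 6 h rise of 2.01.

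The replicate differences also had a direction. At 6 h, replicate 2 was the higher in 84 of 118 genes (71.2%, against 49.3% of all tested genes). Of the 64 late-induced genes below 10 CPM at 6 h it was the higher in 56 (87.5%, against 56.3% of all tested genes at that level). In contrast, replicate 1 was the higher in 10 of the 11 genes at 100 CPM or more (72.7% of all tested genes at that level). At 0 h, replicate 2 was the higher in 74 genes (62.7%, against 50.3% of all tested genes). It was higher by at least 0.5 in 24 genes (20.3%, against 7.25%), and replicate 1 was higher by that much in 2 (1.69%, against 5.67%). Of the 64 genes below 10 CPM at 6 h, replicate 2 was the higher at 0 h in 33 (51.6%, against 53.0% of all tested genes at that level). Replicate 1 was the higher at 0 h in 3 of the 11 genes at 100 CPM or more at 6 h (60.8% of all tested genes at that level). The rise in L reached 2 in both 6 h replicates when each was taken alone in 85 genes, and in 1 of the 2 replicates in the other 33. The 6 h libraries had total counts of 28369763 and 28374970 and TMM factors of 1.14 and 1.22. The part of library depth and scaling in this pattern was not tested.

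**Figure D5:**
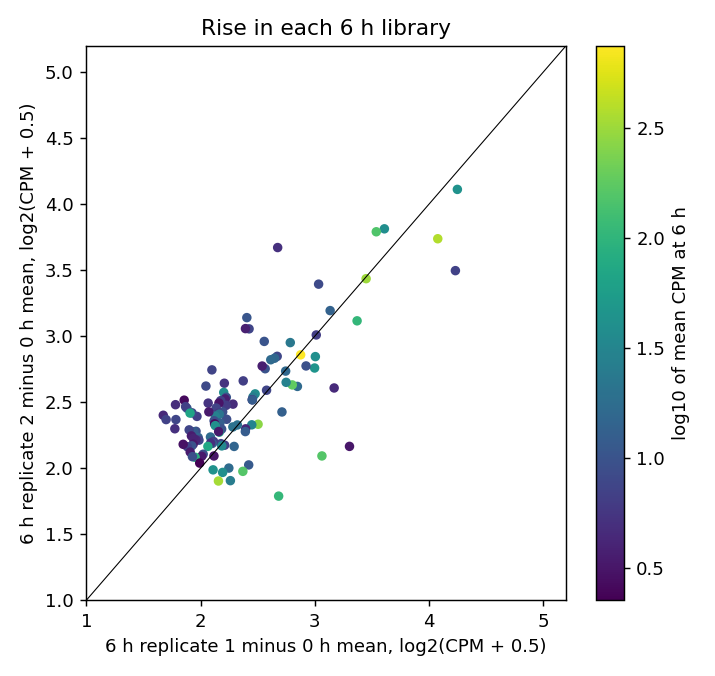
Rise over the 0 h mean in 6 h replicate 1 (x axis) and 6 h replicate 2 (y axis), both in log2(CPM + 0.5), for the 118 late-induced genes, coloured by log10 of mean CPM at 6 h; the line marks equal rises. Weakly expressed genes (dark) mostly lie above the line and the most abundant (light) mostly below it, with 84 genes higher in replicate 2.

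Late-induced genes were shorter than tested genes as a whole, as were other genes with a 6 h rise of at least 2. Their median span was 2235.5 bp, with a range from 168 to 15223 bp, against a median of 3709 bp over all tested genes. Where L had already risen at 1 h, the medians were 2058 bp (by 0.5 to 2) and 1614 bp (by at least 2). The difference depended on the level before heat. Below 1 CPM at 0 h their median was 2058 bp against 1800 bp for all tested genes of that level, whereas between 1 and 10 CPM it was 2236 against 2823 bp and between 10 and 100 CPM 2769 against 4418 bp. The shortest, Solyc12g038090.1 at 168 bp, had 1.00 and 1.85 CPM at 0 h, 1.92 and 2.10 CPM at 1 h, and 8.09 and 9.60 CPM at 6 h. The longest, Solyc04g008030.2, had 1.38 and 1.57 CPM, 1.92 and 1.84 CPM, and 8.71 and 10.9 CPM at these times. Both genes took nearly the same course in CPM, which the selection favours. Per kilobase of gene span they lay far apart at 6 h, at 52.6 CPM per kb in the shortest and 0.645 CPM per kb in the longest.

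The genes were spread over all 12 chromosomes, with 5 on chromosome 10 (0.396% of its tested genes) to 17 on chromosome 2 (0.821%), and the highest share was 0.860%, on chromosome 4. The plus strand held 65 (55.1%, against 50.3% of all tested genes). An ID that starts with TomatoPan instead of Solyc was carried by 1 gene, TomatoPan025530, which had 0.584 and 0.722 CPM at 0 h, 0.516 and 1.13 CPM at 1 h, and 3.17 and 5.58 CPM at 6 h. None overlapped another gene on the same strand, and 4 (3.39%, against 4.86%) overlapped one on the opposite strand.

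In 1 of these 4 overlaps the partner rose as well. Solyc06g053210.4 (chromosome 6, 38675648 to 38679257, plus strand) held 0.793 and 1.44 CPM at 0 h, 1.29 and 1.97 CPM at 1 h, and 7.90 and 13.5 CPM at 6 h. It shares 1264 bp with Solyc06g053220.3 on the minus strand, whose L rose by 1.48 at 1 h and by 3.53 at 6 h. Counting used the strand of the reads, and how many of the reads of one gene were counted for the other was not tested. The partner of Solyc09g009400.4 overlapped it by 4 bp and its L changed by -0.49 at 6 h, and the partners of Solyc03g078800.2 and Solyc09g072630.3 held 8 and 109 counts in all libraries together and were not among the tested genes.

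Next to each other on a chromosome stood 3 pairs of late-induced genes. Solyc02g072010.3 and Solyc02g072020.3 (chromosome 2, 40954158 to 40954949 and 40955001 to 40955768) lie 51 bp apart on the plus strand. The former had 0.25 and 0.401 CPM at 0 h, 0.258 and 0.461 CPM at 1 h, and 3.17 and 3.49 CPM at 6 h. The latter had 0.125 and 1.08 CPM at 0 h, 0.590 and 0.461 CPM at 1 h, and 4.95 and 5.2 CPM at 6 h. Their 6 h levels were close, while the 0 h replicates of the latter were 3 and 27 counts, and its fitted log2 fold change of 3.05 (edgeR adjusted p = 0.00213) moved between 2.22 and 5.25 when either was left out.

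Solyc09g150156.1 and Solyc09g082400.2 (chromosome 9, 64566634 to 64567913 and 64567931 to 64570150) lie 17 bp apart on the minus strand. The former went from 0.0835 and 0.241 CPM at 0 h through 0.553 and 0.293 CPM at 1 h to 2.36 and 2.82 CPM at 6 h. The latter went from 0.542 and 0.763 CPM through 0.885 and 1.01 CPM to 5.66 and 9.04 CPM. In both, all 1 h values were above all 0 h values. The last pair, Solyc04g064650.1 and Solyc04g064660.1 (chromosome 4, 57021230 to 57023080 and 57023936 to 57025522), is divergent, on the minus and the plus strand with 855 bp between them. Its members reached 6.63 and 10.1 CPM, and 2.86 and 3.49 CPM, at 6 h, from 1.38 and 1.08 CPM, and 0.542 and 0.241 CPM, at 0 h. Replicate 2 was the higher in all 6 genes at 6 h. Whether adjoining models on the same strand hold reads of one transcript was not tested.

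Genes next to late-induced genes were described without the 6 neighbours that were late-induced themselves, since the selection fixed their rise. Of the other 135 tested neighbours, 49 (36.3%) were called higher at 6 h than at 0 h by edgeR at an adjusted p below 0.05, against 29.7% of the neighbours of all tested genes counted in the same way. Their L rose by at least 1 in 21 (15.6%, against 10.9%) and by at least 2 in 5 (3.70%, against 2.16%), with a median change of 0.16 against 0.01. On the same strand, 14 of 63 neighbours rose by at least 1 (22.2%, against 11.5%), and on the opposite strand 7 of 72 did (9.72%, against 10.3%). By gap, 13 of 75 neighbours closer than 2000 bp rose by at least 1 (17.3%, against 10.7%), as did 7 of 41 at 2000 to 10000 bp (17.1%, against 10.8%) and 1 of 19 farther away (5.26%, against 11.6%). These shares rest on few genes and are a description without a test.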

How the data were processed

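The deposited values are raw counts per gene, which per the file headers the authors made with featureCounts 2.0.0 on M82 gene models version 1.1.0, keeping reverse-stranded reads of mapping quality 30 or more, multi-mapped reads included, and adding a read to each gene it overlaps. The submitters' processing notes list Trimmomatic 0.38, Bowtie2 2.3.5 and SAMtools 1.9, the file headers name Bowtie alignments freed of duplicates, and the methods name STAR for RNA-seq. The labels give single reads of 75 bp, while the counting option was for read pairs, so a count may stand for 1 read or for 1 pair. The length of all 35603 genes equals their span, so reads in introns were counted. Near-identical copies can be undercounted because of the mapping quality limit.

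The filter of the study, 50 or more counts in 2 or more libraries, left 19123 genes for testing. Late-induced genes were found on TMM-scaled CPM with a pseudocount of 0.5. edgeR 4.0.16 (R 4.3.3) was used to fit models with 1 coefficient per time to the 6 libraries together and to run two-sided quasi-likelihood F tests. Benjamini-Hochberg adjustment covered all tested genes, with a threshold of 0.05. Standard errors are the size of a log2 fold change over the square root of its F value. The procedure was tested on simulated data. With 2 libraries per time, p-values rest on 3 residual and 5.42 prior degrees of freedom. They weigh a change against the spread between these libraries, joined with a prior taken from all tested genes. The libraries were pools of seedlings, so the spread between individual plants was not measured. Total counts ran from 25147160 to 30738632, and intervals and floors cover the stated error only.

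The genes named were drawn from those with the largest rise (10), the highest 6 h CPM (10), at most 3 counts in both 0 h libraries, the smallest distance to a limit of the selection, or an adjoining late-induced gene. Those called at 1 h, the shortest, the longest, the one with a TomatoPan ID and those with overlaps were named after their values were seen, as were their partners. The genes, rules and lists were chosen with earlier results of these data known. Planned pathway lists, promoter motifs and a check of leaf markers were not made, since IDs could not be matched to names. Alternatives were RLE, upper-quartile and total count scaling, other filters, pseudocounts and limits, DESeq2 1.42.0 (the tool of the study), a threshold of 0.01, the 4 libraries of a comparison alone, a block for the replicate number, and each library left out in turn. Positions come from the deposited table and count from 1.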

Additional observations from a re-analysis of the deposited data

Results flagged for a closer look

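The difference between the times stood out by its test: 118 of the 118 late-induced genes differed between 1 h and 6 h of HS by edgeR's quasi-likelihood test at an adjusted p below 0.05. The selection asked for a small change at 1 h and a large rise at 6 h, so this count was fixed by it and holds no further result.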

How the results depend on the processing

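The number of late-induced genes depended on the settings of the selection. It was 241 with total count scaling, of which 113 were among the 118, 52 with a pseudocount of 2 (33 among the 118), 48 with a 1 h limit of 0.25, 243 with one of 1, 323 with a 6 h limit of 1.5 and 36 with one of 2.5. Leaving out single libraries gave 100 to 144 genes, and as few as 78 of the 118 were among them, without 0 h replicate 2. Total count scaling moved the median change of all tested genes by -0.14 at 1 h and 0.26 at 6 h, and upper-quartile scaling by -0.14 and 0.08. The calls of the 118 genes at 6 h against 0 h and against 1 h were 118 under every alternative that kept both libraries of each time. The selection used these same changes and libraries, which favours this outcome. The 7 calls at 1 h became 3 with upper-quartile scaling and 4 with total count scaling, none of them among the 7, 11 without a filter, 0 at a threshold of 0.01 (edgeR; 17 genes had an unadjusted p below 0.05, and DESeq2 called 6 at 0.05) and 4 with only the libraries compared, and ranged from 1 to 18 on leaving out single libraries. With the replicate number as a block 9 genes were called at 1 h, the 7 among them, and 118 in both other comparisons. Replicate differences at 0 h and 1 h, 0 h and 6 h, and 1 h and 6 h correlated across genes, which are not independent, at -0.10, -0.02 and 0.20, so the numbers were not taken as pairs. For 31 named genes all 434 values of the 6 h log2 fold change under 14 alternatives kept direction, which the selection on this rise also favours. At these depths the 1 h change of genes below 1 CPM was the least certain.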
